A study of Mus musculus with 2 samples.

Results

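The genes described here encode 10 enzymes that make or degrade prostaglandins and products of the lipoxygenases, lipids that are candidate ligands of the nuclear receptor PPARG. They were taken by gene name from the 29982 genes with values on arrays of embryonic mouse ureters, and are Pla2g4a, Ptgs1, Ptgs2, Ptges, Ptgds, Ptgis, Hpgd, Alox5, Alox12 and Alox15. Ureters of E16.5 embryos of the NMRI background were sorted by sex and pooled, and total RNA of each pool was amplified and labelled. Pools of Pparg-cKO embryos (Pax2-cre/+; Pparg fl/fl) were set against pools of control littermates. The labels describe the controls as Pparg(fl/?) and the study's methods as lacking cre. Since the methods give Pparg fl/fl mothers, every control carried a floxed allele. Pax2-cre acts in the nephric duct and its derivatives, among them the ureteric epithelium, and removes exons of Pparg flanked by loxP sites there, whereas the mesenchyme of the ureter keeps the gene. The data comprised 2 dual-colour arrays with exchanged dyes. Array 1 (replicate 1) held female pools and array 2 (replicate 2) male pools.

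The genotype behind each dye was not settled. RNA A is the RNA in red on array 1 and in green on array 2, and RNA B is its partner on each array. The labels make RNA A the control, whereas the signed fold changes deposited by the authors, read as mutant over control, make it the Pparg-cKO. The study's text, which describes Upk1a and other markers of superficial cells as lowered in the mutant, also on sections, points the same way as the deposited values. Log2 ratios are those of RNA A relative to RNA B, and no genotype is assigned. Because dye and sex changed sides together between the arrays, an effect of dye and an effect that differs between the sexes cannot be told apart. Each RNA was a pool of many ureters, so the spread between the arrays is that of 2 pairs of pools, and fewer cells of a type cannot be told apart from less RNA per cell.

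Eicosanoids are made on demand from arachidonic acid, which phospholipases release from membranes. Cyclooxygenases turn it into prostaglandin H2, from which terminal synthases make the single prostanoids, and lipoxygenases open a separate branch that leads to leukotrienes, lipoxins and hydroxy fatty acids. Some of these products, a dehydration product of prostaglandin D2 among them, activate PPARG in cell assays. In the ureter and bladder, prostaglandins are best known for their effects on smooth muscle contraction.

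The members were read by 14 probes of 60 bases, with 2 probes each for Ptges, Ptgis, Hpgd and Alox12 and 1 probe for each of the other 6 genes. The sequences of the paired probes are shown because the ratio of a gene can depend on where it is read. For each, 30 bases are printed 5′ to 3′, in lower case, with a polyadenylation hexamer (AATAAA or ATTAAA) in capitals where the probe holds one. Positions are those of the whole probe on mm9, as in the files, and probe 1 is the one with the higher mean log2 signal, which stood for the gene.
Ptges probe 1, chr2:30744995-30745054, minus strand, bases 30 to 59 of the probe: aagtcagccccaATTAAAtgctttccttta
Ptges probe 2, chr2:30748214-30748273, minus strand, bases 1 to 30: aaccctctgatcgcctggatacatttcctc
Ptgis probe 1, chr2:167028696-167028755, minus strand, bases 24 to 53: gcaggaaaagctAATAAAagctctgtatct
Ptgis probe 2, chr2:167017317-167017376, minus strand, bases 1 to 30: atctggtcccccactagcagatgctaccca
Hpgd probe 1, chr8:58798941-58799000, plus strand, bases 1 to 30: gaattcattttcaagattatgacatctctc
Hpgd probe 2, chr8:58799399-58799458, plus strand, bases 17 to 46: gaaatatttagtAATAAAagcttgtccggg
Alox12 probe 1, chr11:70055715-70055774, minus strand, bases 1 to 30: acactccacattagtattctaactacaggg
Alox12 probe 2, chr11:70063629-70063688, minus strand, bases 1 to 30: tcttggctaagatctgggtccgaaattcag
The paired probes started 3219 bases apart in Ptges, 11379 in Ptgis, 458 in Hpgd and 7914 in Alox12. Which exon or untranslated region each probe lies in was not analysed here.

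No member passed the filter, and none of those tested passed the test. The filter asked both arrays for a ratio of 1.5-fold or more to the same side, with a processed signal (fluorescence after background subtraction and dye normalization, in arbitrary units) of at least 100 in the brighter RNA. It held 0 of 10 members in either direction, against 0.157% (RNA A brighter) and 0.23% (RNA B brighter) of the 29982 genes. Members past 1.5-fold in opposite directions on the arrays also numbered 0, against 0.43% of all genes. Alox15 was not well above background on array 2 and was not tested. Of the other 9 members, limma (moderated test on the 2 log2 ratios, Benjamini-Hochberg adjusted over 21429 genes) called 0, and 0 had an unadjusted p under 0.05. Its calls took in 0.126% of all genes tested with RNA A brighter and 0.187% with RNA B brighter. The median of the mean log2 ratios was 0.027 for the 9 members, ranging from −0.32 to 0.24, and 0.0067 for all genes tested.

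The absence of a call does not show equal levels, since the intervals were wide. The 95% confidence intervals of the mean log2 ratio reached from 0.45 to 0.57 to either side. For 4 of the 9 members, Ptgs2, Ptges, Alox5 and Alox12, the interval lay within 1.5-fold in both directions (0.585 on the log2 scale). The same held for 52.2% of all genes tested. For the other 5 it reached past 1.5-fold on 1 side, at most to −0.80 (1.74-fold) for Ptgds. These intervals borrow their spread from all genes tested, because a gene had 2 ratios.

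**Figure D1:**
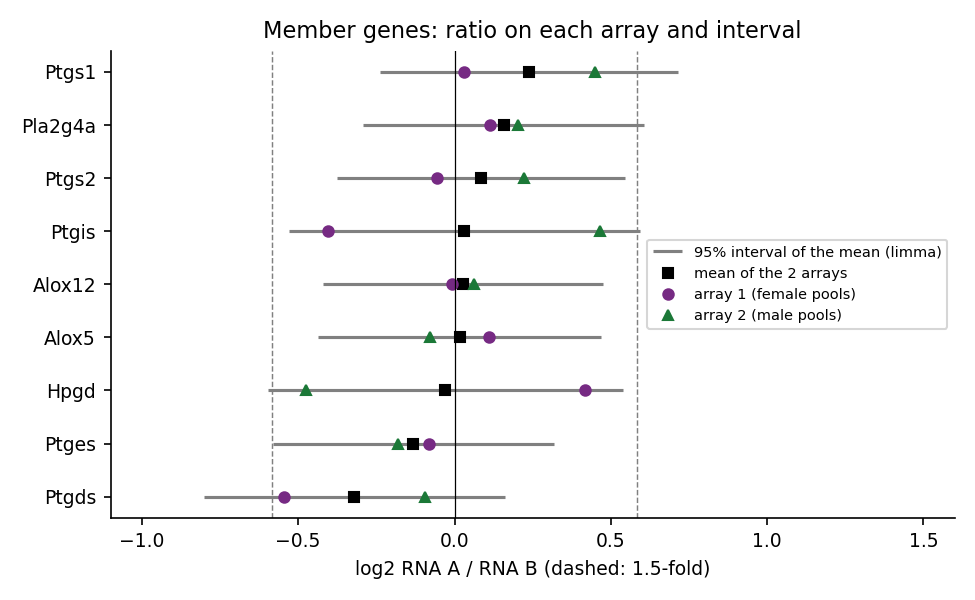
Log2 ratio of RNA A over RNA B for the 9 member genes tested, on array 1 (circles) and array 2 (triangles), with the mean of both (squares) and its 95% interval from limma (bars). All intervals include 0, and the arrays lie on opposite sides of 0 for 5 genes, most widely for Hpgd and Ptgis.

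Pla2g4a encodes the cytosolic phospholipase A2 that releases arachidonic acid from membranes, the first step for both branches. It was read at chr1:151676814-151676873. Array 1 read 5241 for RNA A against 4850 for RNA B, and array 2 read 5154 against 4478. RNA A was the brighter on both arrays, by little, and both of its signals lay above both of RNA B. The mean log2 ratio was 0.16 ± 0.064 (SD, n = 2 arrays), with a 95% interval from −0.29 to 0.61 (limma adjusted p = 0.99995).

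The cyclooxygenases carry out the committed step to prostanoids. Ptgs1, the form that most tissues express without stimulation (probe at chr2:36107644-36107703), read 1736 (RNA A) against 1702 (RNA B) on array 1 and 2098 against 1536 on array 2. The RNAs were nearly level in the female pools, while RNA A was 1.37-fold brighter in the male pools. Its mean of 0.24 ± 0.30 (log2; SD, n = 2 arrays; limma adjusted p = 0.99995) was the highest among the members and rested on array 2. Its interval reached from −0.24 to 0.72.

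Ptgs2, the inducible cyclooxygenase (probe at chr1:151954744-151954803), read 31.0 (RNA A) against 32.3 (RNA B) on array 1 and 24.1 against 20.6 on array 2. All spots were well above background, but none of these values came near 100, and the log2 ratio changed sign between the arrays. The log2 ratios of −0.056 and 0.22 stood beside SDs of 0.19 and 0.21 between the 4 spots of an array. The interval of the mean, from −0.38 to 0.54, did not reach 1.5-fold.

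Among the terminal synthases, Ptges makes prostaglandin E2 and works together with Ptgs2. Probe 1 read 5628 (RNA A) against 5961 (RNA B) on array 1 and 5455 against 6178 on array 2. RNA B was the brighter on both arrays, and the mean log2 ratio was −0.13 ± 0.068 (SD, n = 2 arrays; limma adjusted p = 0.99995). Probe 2, which lies upstream on the transcribed strand and holds no polyadenylation hexamer, did not share this direction on array 1. It read 815 (RNA A) against 590 (RNA B) on array 1 and 661 against 799 on array 2, so that the log2 ratio was 0.47 in the female and −0.27 in the male pools. The red channel was thus the brighter at probe 2 on both arrays.

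Ptgds makes prostaglandin D2. Its probe, at chr2:25322232-25322291, read 43.1 (RNA A) against 62.9 (RNA B) on array 1 and 23.4 against 25.0 on array 2. RNA B was 1.46-fold brighter in the female pools and nearly level with RNA A in the male pools. Its mean of −0.32 ± 0.32 (log2; SD, n = 2 arrays) was the lowest of the members tested, and its unadjusted p of 0.165 (limma, adjusted p = 0.99995) was the smallest. The size of this mean exceeded that of 90.3% of all genes tested, and the signals lay below 100.

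Ptgis makes prostacyclin, a vasodilator and inhibitor of platelet aggregation. Probe 1 read 590 (RNA A) against 780 (RNA B) on array 1 and 881 against 638 on array 2. RNA B was brighter by 1.32-fold in the female pools and RNA A by 1.38-fold in the male pools, with SDs between the spots of an array of 0.039 and 0.031 on the log2 scale. The mean was therefore near 0, at 0.031 ± 0.61 (SD, n = 2 arrays). Probe 2 had signals between 23.8 and 26.8 in all channels and log2 ratios of 0.17 and 0.15, within its spot SDs of 0.23 and 0.30.

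Hpgd encodes the dehydrogenase that inactivates prostaglandins by oxidising their hydroxyl group. Probe 1 read 2820 (RNA A) against 2111 (RNA B) on array 1 and 2419 against 3365 on array 2. RNA A was 1.34-fold brighter in the female pools and RNA B 1.39-fold brighter in the male pools, and the mean log2 ratio was −0.029 ± 0.63 (SD, n = 2 arrays). Probe 2, the downstream one, which holds AATAAA, read 2179 (RNA A) against 1900 (RNA B) on array 1 and 1976 against 2507 on array 2. Both probes thus had the red channel as the brighter on both arrays, with log2 ratios of 0.42 and −0.48 at probe 1 and of 0.20 and −0.34 at probe 2.

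The part of a ratio that changed sign between the arrays was measured as the difference of the 2 log2 ratios divided by 2. Its size was 0.45 for Hpgd and 0.43 for Ptgis, above that of 92.9% and 92.3% of all genes tested. For the means, Hpgd and Ptgis exceeded only 15.7% and 17.0% of genes. Across the 9 members, 5 had ratios of opposite sign on the arrays, against 61.0% of all genes tested. Ratios of opposite sign that each exceeded 2 times the SD between spots were found for Hpgd and Ptgis, 2 of 9 members, and for 32.5% of all genes tested. The SD between spots is that of 1 hybridisation and leaves out the spread between pools. The median size of the part that changed sign was 0.14 for the members and 0.15 for all genes tested.

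**Figure D2:**
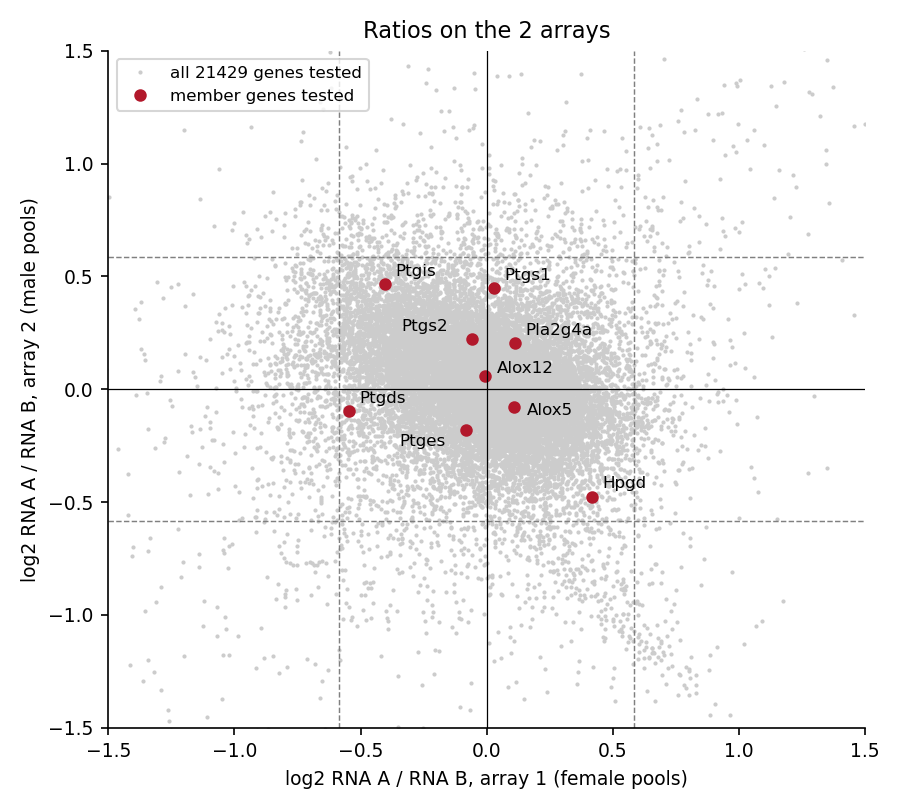
Log2 ratio of RNA A over RNA B on array 1 (x axis) against array 2 (y axis) for the 21429 genes tested (grey) and the 9 member genes tested (red), with dashed lines at 1.5-fold; 121 genes lie outside the axes. No member lies beyond the dashed lines, and Hpgd and Ptgis lie on opposite sides in the quadrants where the arrays differ in sign.

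Of the lipoxygenases, Alox5 opens the path to leukotrienes. Its probe, at chr6:116360326-116360385, read 35.9 (RNA A) against 33.2 (RNA B) on array 1, from 2 of 4 spots, and 30.3 against 32.0 on array 2. The RNAs overlapped, and the mean log2 ratio was 0.016 ± 0.13 (SD, n = 2 arrays), with an interval from −0.44 to 0.47.

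Alox12, the lipoxygenase known from platelets, read 544 (RNA A) against 546 (RNA B) on array 1 and 611 against 586 on array 2 at probe 1. Its log2 ratios of −0.0069 and 0.061 were the smallest of the members tested on either array, with an interval of the mean from −0.42 to 0.48. Probe 2 read 79.6 (RNA A) against 69.3 (RNA B) on array 1 and 102 against 88.0 on array 2, with log2 ratios of 0.20 and 0.22. RNA A was the brighter there on both arrays, in each case by more than the SD between spots (0.11 and 0.094). On array 1 the ratio was less than 2 times that SD.

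Alox15, which makes hydroxy fatty acids of the kind that activate PPARG (probe within chr11:70159115-70159339), read 6.48 (RNA A) against 8.23 (RNA B) on array 1 and 1.85 against 2.33 on array 2. On array 1, RNA B was well above background and RNA A was not, and on array 2 neither was. No fold is given for this gene.

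**Figure D3:**
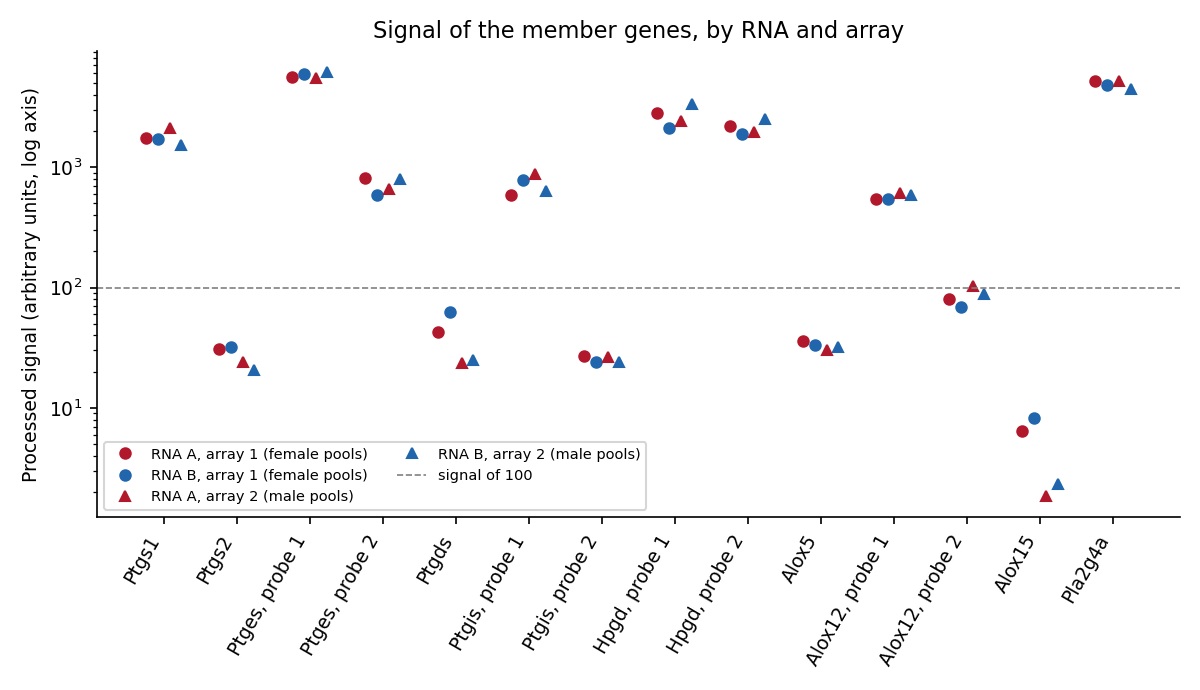
Processed signal (arbitrary units, log axis) of the 14 probes of the 10 member genes in RNA A (red) and RNA B (blue) on array 1 (circles) and array 2 (triangles), with a dashed line at 100. Signals of different probes are not comparable; the 4 signals of a probe spread most at Ptgds and Alox15, where both RNAs were brighter on array 1.

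Levels were also set between the arrays, which were normalised separately and differ in the sex of the pools, so that array and sex cannot be told apart. With 1 array per sex, no test was made. Ptgds was 2.15-fold brighter on the array of female pools (mean over both RNAs), a log2 difference of 1.11 that exceeded 99.3% of all genes tested in size. Both female signals, 43.1 and 62.9, lay above both male signals. Ptgs2 was 1.42-fold brighter on the array of female pools, with no overlap between the arrays, and exceeded 95.1% of genes. Ptgds and Ptgs2 had signals below 100 in all channels, whereas these percentages were taken over tested genes of any signal. A comparison with genes of like signal was not made. For the other 7 members tested the log2 difference was at most 0.23 in either direction.

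The members were then placed among 56 other genes of the eicosanoid pathway, of which 44 were tested. The filter held 0 of 56 in either direction and limma called 0 of 44. At an unadjusted p under 0.05, RNA A was brighter for 4 and RNA B for 2, against 1.68% and 2.1% of all genes tested. Their median mean log2 ratio was 0.056. RNA A was the brighter on both arrays for 18 of the 44 and RNA B for 9, while 17 changed sign, against 21.6%, 17.4% and 61.0% of all genes tested.

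By role, the 15 tested phospholipases and lipases had a median mean log2 ratio of −0.065. The lowest of them was Faah, the hydrolase of anandamide, at −0.52 ± 0.26, followed by the secreted phospholipase Pla2g3 at −0.36 ± 0.40, and the highest was Pla2g10 at 0.52 ± 0.32 (SD, n = 2 arrays each). Pla2g10 and Pla2g3 had signals below 100, and the dimmer second probe of Faah had a mean of −0.10. The 7 terminal synthases and reductases had a median of 0.078. The lowest was Akr1b3, an aldose reductase that can form prostaglandin F2 alpha, with readings of 11723 (RNA A) against 14846 (RNA B) on array 1 and 11642 against 18143 on array 2. RNA B was the brighter of each pair, with a mean of −0.49 ± 0.21 (limma unadjusted p = 0.0401, adjusted p = 0.99995), and its second probe gave −0.60.

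The 5 genes of prostanoid transport and breakdown had a median of 0.041 and the 7 tested prostanoid receptors one of 0.049, with none below an unadjusted p of 0.05. The other lipoxygenases and leukotriene enzymes had a median of 0.15, and for 5 of the 7 tested RNA A was the brighter on both arrays. The 3 tested receptors for leukotrienes and lipoxins, Fpr2, Ltb4r1 and Cysltr1, had RNA A as the brighter on both arrays. This held for 21.6% of all genes tested, and these small groups were not tested as sets. Fpr2, a receptor of formyl peptides and lipoxin, read 59.4 (RNA A) against 27.8 (RNA B) on array 1 and 48.8 against 35.7 on array 2. Its mean log2 ratio of 0.77 ± 0.46 was the highest of the pathway genes tested, and its limma adjusted p of 0.570 (unadjusted 0.00803) did not pass. Ltb4r1, with signals below 25, had a mean of 0.49 ± 0.25 and Cysltr1, with signals from 157 to 243, one of 0.48 ± 0.21 (SD, n = 2 arrays each). The rule for naming genes did not cover Cysltr1, which was added for its values, and its second probe gave 0.53.

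**Figure D4:**
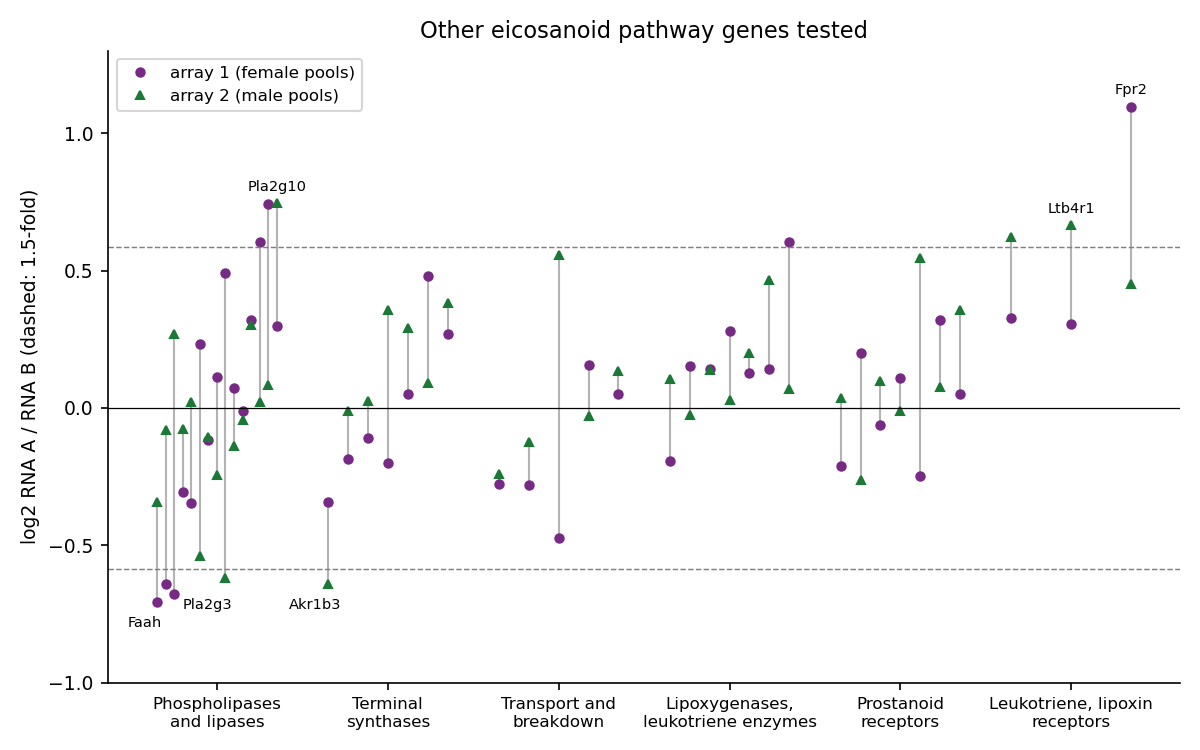
Log2 ratio of RNA A over RNA B on array 1 (circles) and array 2 (triangles) for the 44 other pathway genes tested, by role, with a line joining the arrays of each gene and dashed lines at 1.5-fold. The 3 highest and 3 lowest means are named; no gene passes 1.5-fold on both arrays in the same direction, and the 3 leukotriene and lipoxin receptors lie above 0 on both.

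Leukocytes carry many of these receptors, and marker genes of other cells were read beside them. The 6 mast cell markers had a summed signal of 1098 and 898 in RNA A against 475 and 508 in RNA B (array 1, array 2). Most of that sum came from Cpa3, with a mean log2 ratio of 1.34. Of the other markers well above background, Cma1 had a mean of 1.09. Tpsb2, with a mean of 0.013, and Fcer1a, with one of 0.54 and signals below 12, changed sign between the arrays. The log2 ratio of Fcer1a was −0.15 on array 1 and 1.23 on array 2. Mcpt4 and Ms4a2 were not well above background. The 6 macrophage markers summed to 8346 and 8398 in RNA A against 7514 and 7682 in RNA B (median 0.15, from 0.10 for Cx3cr1 to 0.21 for Adgre1). The part of these cells in the receptor ratios was not tested. The tissue was recognisable, with all 8 urothelial, 6 smooth muscle and 5 mesenchymal markers well above background. The median ratio was −0.56 for the urothelial list (Upk1a −1.32, Krt5 0.47; all 4 uroplakins dimmer in RNA A on both arrays), −0.64 for smooth muscle (Myh11 −0.80, Acta2 −0.56) and −0.017 for mesenchyme (Col1a1 −0.064, Dcn 0.096). It was 0.12 for 5 endothelial (Cdh5 −0.12, Tek 0.23) and 0.11 for 4 collecting duct markers (Scnn1b −0.32, Fxyd4 1.16). Of 5 platelet markers 3 were well above background (median −0.043, Gp9 −0.26, Pf4 0.24), and of 5 nephron markers 2 (Slc34a1 −2.73, Lrp2 −0.35). The ratio of Slc34a1 rested on dim signals, 6.20 (RNA A) against 30.8 (RNA B) on array 1 and 4.20 against 37.2 on array 2. Pparg itself had log2 ratios of 0.60 and 0.71 with signals from 7430 to 12888, and so passed the 1.5-fold filter as brighter in RNA A but not limma (adjusted p = 0.615). Whether its probe lies in the deleted exons was not analysed here.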

How the data were processed

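Total RNA of pooled ureters was hybridised to 2 dual-colour Agilent arrays, grouped by the labels. Both lay on 1 slide, read in 1 scan. Titles state E16.5 (used here), whereas the label of the second channel states E14.5. Each spot's processed intensity was deposited as Feature Extraction (version 10.7.3.1, per the file headers) gave it, after background subtraction, surrogate values near background and LOWESS dye normalization. The deposited mean and local background intensities served an alternative. Signed fold changes per probe (a score, direction unstated), deposited by the authors as a table, followed RNA A over RNA B (Pearson r = 0.996 over 18720 probes of array 1, 0.997 over 18978 of array 2).

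Control spots (17263 per array) and flagged spots (5705 and 5579 of 157716) were left out, and log2 processed signals averaged over the spots of a probe. No spot was saturated, and 70.4% to 80.4% were well above background, depending on dye. Of 39429 probes, 28328 were named through RefSeq accessions (GRCm38.p6, names only) and the others kept the file's name. Where probes shared a gene, that of highest mean log2 signal was taken. The signals had passed LOWESS, on which ratios of dim or dye-biased probes depend. The arrays limit precision through their number.

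limma 3.58.1 (R 4.3.3, intercept on 2 ratios, eBayes, Benjamini-Hochberg at 0.05) was tried on simulated data. The simulated ratios spread less between arrays than those measured, so that trial does not show how the test performs here. On the measured ratios, limma was run on genes for which the same RNA had at least 0.5 of spots well above background on both arrays. An intensity of 100 and 1.5-fold are thresholds of the study's methods; asking the threshold of the brighter RNA on each array is a reading made here. Plots used matplotlib 3.10.9. Alternatives were normexp (offset 50) with loess, loess on processed signals, median centring, the deposited table, the mean of a gene's probes, flagged spots kept, signal thresholds of 50, 200 or none, 2-fold, 1.5-fold on the mean, an intensity trend, no filter on dim probes and leaving out each array. The members, the pathway and marker lists (urothelium, smooth muscle, mesenchyme, endothelium, macrophage, mast cell, platelet, nephron, collecting duct) were chosen with earlier results of these data known. Named are all members, Pparg, the 3 highest and 3 lowest pathway genes, and the extremes of each marker list among genes well above background. Cysltr1, Alox5ap, Cdh1, Epcam, the other mast cell markers and the pathway genes of opposite direction were named after their values were seen.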

Additional observations from a re-analysis of the deposited data

Results flagged for a closer look

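In the female and male pools, 2 members had ratios of opposite direction, each beyond 2 times the SD between spots on both arrays. The spot SD is technical and leaves out the spread between pools, and 32.5% of all genes tested met the same description. With 1 array per sex and the dyes exchanged with sex, the difference was not tested. The difference of the log2 ratios, array 1 minus array 2, divided by 2 was −0.43 for Ptgis and 0.45 for Hpgd.

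Among the other genes of the pathway, 10 of 44 tested met it, a share no higher than that of all genes. The sizes of Cbr1 and of Ephx2 lay below or near the median of 0.15 over all genes. Of these, red exceeded green on both arrays for the phospholipases Pla2g4c (0.55) and Pla2g7 (0.39), for Plaat3 (0.18) and for the prostaglandin F receptor Ptgfr (0.23). Green exceeded red for Mgll, a monoacylglycerol lipase (−0.47), for Slco2a1, a prostaglandin transporter (−0.51), and for the receptor Ptger1 (−0.40). The same held for Ptges3 (−0.28), Cbr1 (−0.067) and Ephx2 (−0.15). For Mgll and Ptges3 the change of sign depended on the probe. Further probes of Mgll had log2 ratios of −0.91 and 0.39, and of −0.25 and −0.18 (array 1, array 2). Those of Ptges3 had −0.19 and 0.29, −0.0029 and 0.12, and 0.12 and 0.11.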

How the results depend on the processing

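The counts of members and of pathway genes past the filter in the same direction and called by limma were 0, as was that of members in opposite directions, and stayed at 0 in every alternative run on both arrays. With either array left out, which leaves 1 ratio and no test, members past the filter stayed at 0, whereas pathway genes past it numbered 1 with RNA A brighter and 1 to 2 with RNA B brighter (Alox5ap, Mgll and Faah on array 1, Cysltr1 and Akr1b3 on array 2). The median log2 ratio of the members was 0.027, −0.0069 to 0.061 with an array left out, and 0.083 with the mean of a gene's probes. That of the pathway genes was 0.056, and 0.052 to 0.090 with an array left out. Under the 8 alternatives on both arrays each of the 9 members tested kept the sign of its mean, and limma's adjusted p lay between 0.9998 and 1. The intensity trend and the run without a filter on dim probes changed only the test, so the means could not move there. Keeping flagged spots moved only the mean of Alox5. Over all genes, limma's 27 calls in RNA A and 40 in RNA B became 1 and 0 with normexp and loess, and 0 and 0 both with the deposited table and without the filter on dim probes, so a lack of calls is a weak statement. They were 9 and 24 with loess on processed signals, and 15 and 30 with flagged spots kept. The filter's counts over all genes (47 for RNA A, 69 for RNA B, 129 opposite) moved to 193, 239 and 3292 without a signal threshold and to 19, 29 and 0 at 2-fold. At a threshold of 200, 28 genes passed for RNA A, and with 1.5-fold on the mean 133 passed for RNA B and 355 were opposite. On single arrays 301 to 321 passed for RNA A and 488 to 637 for RNA B. Ptgs2, Ptgds, Alox5 and Alox15 had signals under 100 throughout, but no member reached 1.5-fold on either array, so the signal threshold decided none. No paired analysis was possible because the labels form 1 group, so that no groups share replicate numbers; the ratio within an array already pairs its RNAs.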
